A study of Mus musculus with 6 samples.

Results

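The BCL2 family genes described here are 10 regulators of mitochondrial cell death, chosen by gene name: the survival genes Bcl2, Bcl2l1, Bcl2l2, Mcl1 and Bcl2a1b, the pore-forming effector Bak1, and the BH3-only genes Bcl2l11, Pmaip1, Bid and Bmf. Of the 10, 8 were listed in all 6 libraries, among 20788 genes that at least 1 library listed, and the other pair, Bcl2a1b and Pmaip1, in none. RNA was sequenced from subclones of B16, a pigmented melanoma line that grew from the skin of a C57BL/6 mouse. Tyr-H cells carry the label of high tyrosinase activity and Tyr-L cells that of low tyrosinase activity, tyrosinase being the enzyme that turns tyrosine into melanin, and 3 libraries were made of each. Both groups grew untreated in low-glucose medium with serum, and neither carries a stated transgene. The subclones were raised from single-cell colonies, and the sources do not say how many colonies make up a group or whether the 3 libraries were separate cultures, so the p-values measure only the spread between these libraries.

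The BCL2 proteins decide whether the outer membrane of the mitochondrion stays closed. BCL2, BCL-XL (encoded by Bcl2l1), BCL-W (Bcl2l2), MCL1 and BFL1 (the Bcl2a1 genes) hold pore-forming effectors such as BAK in check. The BH3-only proteins BIM (Bcl2l11), NOXA (Pmaip1), BID and BMF bind the survival proteins, and BIM and BID can also switch the effectors on, after which cytochrome c leaves the mitochondrion and caspases are activated. Melanoma cells are known to lean on MCL1 and BCL-XL as well as on BCL2. In the study, apoptosis was examined in B16 cells given excess tyrosine, with a BCL2 inhibitor as the positive control. It reported no obvious apoptosis there, and proposes that the loss of viability lay outside classical apoptosis and necrosis. The libraries come from Tyr-H and Tyr-L cells to which no tyrosine was stated to be added, and give the levels of the family's transcripts in those subclones only.

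In Tyr-H cells Mcl1 was lower, at 57.2% of its Tyr-L level, while Bcl2l1 was higher, at 1.41 times its Tyr-L level. Bcl2 and the BH3-only gene Bcl2l11 were lower as well, and Bid was higher. Bak1, Bcl2l2 and Bmf did not pass the test. No member changed by as much as 2-fold. These are differences in bulk RNA, in which fewer cells of a type and less RNA per cell cannot be told apart.

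The members whose transcripts differed most are shown first with the DNA before their starts, since 3 of them were lower in Tyr-H cells and 1 was higher. RefSeq gives a 300-base window (250 before to 50 after an annotated start, GRCm38.p6) for 9 of the 10 members, 14 windows in all, and the 250 bases before the start are printed from 4 of these. For Bcl2l1 the window at the outermost of its annotated starts is shown, and for Bcl2l11 the first of its windows. Lower case is the genome sequence read in the direction of the gene, and capitals mark a GC box (GGGCGG on either strand) or a FOXO motif (GTAAACA on either strand).
Mcl1: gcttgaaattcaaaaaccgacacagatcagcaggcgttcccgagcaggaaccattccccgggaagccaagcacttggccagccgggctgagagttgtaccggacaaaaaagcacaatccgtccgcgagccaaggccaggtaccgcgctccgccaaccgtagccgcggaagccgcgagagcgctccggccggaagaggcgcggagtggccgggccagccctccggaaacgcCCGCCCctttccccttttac
Bcl2l1: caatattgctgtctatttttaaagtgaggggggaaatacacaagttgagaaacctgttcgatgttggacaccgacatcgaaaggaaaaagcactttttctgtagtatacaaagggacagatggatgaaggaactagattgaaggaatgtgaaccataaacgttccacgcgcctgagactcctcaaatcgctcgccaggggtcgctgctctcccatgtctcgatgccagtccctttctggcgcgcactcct
Bcl2: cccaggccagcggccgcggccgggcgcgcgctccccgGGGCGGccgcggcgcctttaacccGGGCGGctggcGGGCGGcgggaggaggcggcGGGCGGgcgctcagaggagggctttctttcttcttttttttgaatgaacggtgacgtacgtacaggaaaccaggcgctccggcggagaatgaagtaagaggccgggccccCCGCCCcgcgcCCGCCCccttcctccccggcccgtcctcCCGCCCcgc
Bcl2l11: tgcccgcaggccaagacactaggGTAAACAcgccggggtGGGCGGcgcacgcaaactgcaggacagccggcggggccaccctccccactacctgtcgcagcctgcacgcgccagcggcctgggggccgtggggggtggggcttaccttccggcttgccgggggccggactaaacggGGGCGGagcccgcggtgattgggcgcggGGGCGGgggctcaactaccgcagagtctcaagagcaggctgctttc

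The Mcl1 bases lie at chr3:95658471-95658720 on the plus strand, those of Bcl2l1 at chr2:152831729-152831978 on the minus strand, those of Bcl2 at chr1:106714291-106714540 on the minus strand and those of Bcl2l11 at chr2:128125788-128126037 on the plus strand. The window of Bcl2 held 7 GC boxes and had a G+C content of 76.0%, against a median of 52.7% over all 32851 windows. The window of Bcl2l11 held 3 GC boxes and 1 FOXO motif at 71.0% G+C, and that of Mcl1 held 1 GC box at 65.7%. The Bcl2l1 window shown held no motif of those searched and had 52.3% G+C. The windows shown for the genes that were lower in Tyr-H cells were richer in G+C than that of Bcl2l1, while Bid, which was higher, had 3 GC boxes and 63.3%. A GC box stood in 35.7% of all windows and the FOXO motif in 3.65%. The other motifs searched on both strands, with the share of all windows that hold each, were TATAAA (13.6%), the E-boxes CACGTG (7.15%) and CATGTG (14.2%), the AP-1 motif TGANTCA (7.81%) and the NF-kappaB motif (1.47%). Of these, CATGTG was met once in another Bcl2l1 window and TGANTCA once in that of Bcl2a1b. No motif searched overlaps another in the printed sequences. These matches describe letters in the windows and carry no measurement of binding.

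Expression is given as FPKM, fragments scaled to transcript length and to the mapped fragments of the library, so that levels of different genes can be set side by side per length. Of the 20788 genes, 14336 averaged at least 0.1 FPKM across all libraries. These entered a limma fit on log2(FPKM + 0.1), and p-values were adjusted over all of them by the Benjamini-Hochberg method. The added constant makes the fold change of a low gene look smaller than it is. A gene passed the test if its adjusted p did not exceed 0.05, and was called when its log2 fold change was also at least 1 in size. All 8 members that are listed passed the filter, each through both groups. None of the 8 was called in either direction, where 8.75% of all tested genes were (2.96% higher and 5.78% lower in Tyr-H cells). At the adjusted p alone, 2 members were higher, 3 were lower and 3 did not pass, so that 62.5% passed where 57.8% of all tested genes did (17.9% higher and 39.9% lower). At an unadjusted p of at most 0.05 the count was 5 as well. The libraries of the groups did not overlap for 5 of the 8 members, again 62.5%, where 64.0% of all tested genes did not overlap (20.2% higher and 43.8% lower). The share of members that differed was thus close to that of all genes. The median log2 fold change was 0.07 over the 8 members and -0.15 over all tested genes, of which the middle part between the quartiles ran from -0.46 to 0.14.

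**Figure D1:**
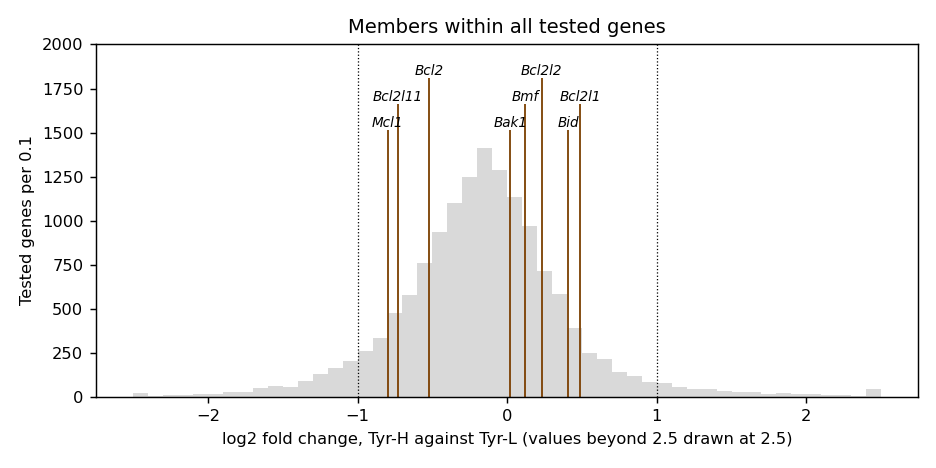
The histogram counts the 14336 tested genes by their log2 fold change (Tyr-H against Tyr-L, bins of 0.1), and each brown line stands for 1 member, with dotted lines at the 2-fold limits. All 8 members lie inside the dotted lines, Mcl1 lowest at -0.80 and Bcl2l1 highest at 0.49.

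Mcl1 (ENSMUSG00000038612, chr3:95658788-95663176, plus strand) encodes the short-lived survival protein that binds BAK, BIM and NOXA. It stood at 74.6, 73.2 and 70.0 FPKM in Tyr-L libraries 1 to 3 and at 41.3, 41.3 and 42.1 FPKM in Tyr-H libraries 1 to 3. Every Tyr-H library was below every Tyr-L library. The mean fell from 72.6 ± 2.35 to 41.6 ± 0.457 FPKM (SD, n = 3 each). This is a log2 fold change of -0.80 ± 0.04 (SE, 95% interval -0.88 to -0.72, limma adjusted p = 3.8e-07). The exact permutation test gave p = 0.1, two-sided, the smallest that 3 against 3 libraries allow, and it gave the same for Bcl2l1, Bcl2, Bid and Bcl2l11. The change in Mcl1 was larger in size than that of 85.2% of tested genes, and against the median of all genes it was -0.65. In Tyr-L cells Mcl1 was above 93.0% of tested genes in level, and in Tyr-H cells above 87.7%.

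Bcl2l1 (ENSMUSG00000007659, chr2:152780668-152831728, minus strand) encodes BCL-XL, a stable survival protein of the outer membrane, and a shorter splice form with the opposite action that gene-level values do not separate. Tyr-L libraries 1 to 3 gave 21.3, 21.2 and 22.3 FPKM and Tyr-H libraries 1 to 3 gave 29.9, 30.0 and 31.0 FPKM. The groups stood apart in the direction opposite to Mcl1. The mean rose from 21.6 ± 0.597 to 30.3 ± 0.583 FPKM (SD, n = 3 each). This is a log2 fold change of 0.49 ± 0.04 (SE, 95% interval 0.40 to 0.58, limma adjusted p = 9.4e-06). Its log2 fold change was higher than that of 91.0% of tested genes.

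Bcl2 (ENSMUSG00000057329, chr1:106538178-106714274, minus strand), the founding member of the family, is a survival gene long known in melanocytes, where MITF acts on it. Its values were 7.38, 6.65 and 7.0 FPKM in Tyr-L libraries 1 to 3 and 4.91, 5.06 and 4.6 FPKM in Tyr-H libraries 1 to 3, without overlap. The mean fell from 7.01 ± 0.363 to 4.86 ± 0.239 FPKM (SD, n = 3 each), to 69.3% of the Tyr-L level. The log2 fold change of Bcl2 was -0.52 ± 0.07 (SE, 95% interval -0.69 to -0.35, limma adjusted p = 0.00026). The antisense gene D630008O14Rik overlaps Bcl2, with means of 0.0575 and 0.0146 FPKM in Tyr-L and Tyr-H cells, and strand was not stated for the counting.

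Bcl2l2 (ENSMUSG00000089682, chr14:54883377-54888234, plus strand) encodes BCL-W. It stood at 8.15, 6.5 and 8.74 FPKM in Tyr-L libraries 1 to 3 and at 8.51, 9.1 and 9.64 FPKM in Tyr-H libraries 1 to 3. The lowest Tyr-H library lay below the highest Tyr-L library, and Tyr-L library 2 was the lowest of all. The log2 fold change of Bcl2l2 was 0.23 ± 0.11 (SE, 95% interval -0.01 to 0.46, limma adjusted p = 0.093), which does not show that its levels were alike. Without Tyr-L library 3 it passed the test, at 0.31 (adjusted p = 0.037). Without Tyr-L library 2 it was at 0.10 (adjusted p = 0.29). Its value carries an added doubt, since Gm20521, a read-through of Bcl2l2 into its neighbour Pabpn1, overlaps it on the same strand at 0.226 and 0.188 FPKM, and the authors' locus for it also holds Pabpn1, at 56.7 FPKM in Tyr-L cells against 44.3 FPKM in Tyr-H cells (log2 -0.36, adjusted p = 0.00023).

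Bcl2a1b (ENSMUSG00000089929, chr9:89199209-89207827, plus strand), a survival gene best known from blood cells, was listed in none of the 6 libraries and was taken as 0 FPKM under the rule. Its near-identical copies Bcl2a1a, Bcl2a1c and Bcl2a1d were not listed either, and reads that fit several copies could be lost in counting. No fold or test is given for Bcl2a1b. A gene that is not listed is not shown to be silent: of the 953 genes missing from exactly 1 library, 8 averaged at least 1 FPKM in the other 5. Of the 21951 protein-coding genes annotated in GENCODE M21, 6806 were listed in no library.

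Bak1 (ENSMUSG00000057789, chr17:27019810-27029009, minus strand) encodes the effector BAK, which forms pores in the outer membrane and which MCL1 and BCL-XL restrain. It gave 36.6, 37.3 and 35.5 FPKM in Tyr-L libraries 1 to 3 and 37.8, 36.5 and 36.6 FPKM in Tyr-H libraries 1 to 3. The ranges of the groups overlapped, with the highest library in Tyr-H and the lowest in Tyr-L. On the deposited scale the log2 fold change of Bak1 was 0.02 ± 0.04 (SE, 95% interval -0.07 to 0.10, limma adjusted p = 0.71), smaller in size than that of nearly all tested genes. Its sign, and whether it passed the test, moved with the scaling of the libraries: the log2 fold change was -0.08 (adjusted p = 0.17) with equal library totals and 0.17 (adjusted p = 0.0045) with median ratio scaling. Bak1 lies within Ggnbp1 on the other strand, which was at 0.397 and 0.386 FPKM. The authors' locus for it also holds Zbtb9, which has no annotated overlap with Bak1 and was at 5.95 FPKM in Tyr-L cells against 7.72 FPKM in Tyr-H cells (log2 0.37, adjusted p = 0.0012).

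Bid (ENSMUSG00000004446, chr6:120891930-120916853, minus strand) encodes the BH3-only protein that caspase-8 cleaves and that links death receptors to the mitochondrion. Its values were 13.2, 14.0 and 13.1 FPKM in Tyr-L libraries 1 to 3 and 16.9, 17.7 and 19.1 FPKM in Tyr-H libraries 1 to 3, all higher in Tyr-H cells. The mean rose from 13.4 ± 0.519 to 17.9 ± 1.16 FPKM (SD, n = 3 each). This is a log2 fold change of 0.41 ± 0.06 (SE, 95% interval 0.28 to 0.54, limma adjusted p = 0.00026). Bcl2l13, a more distant family gene, overlaps Bid on the other strand at 30.0 and 37.3 FPKM. It rose by 0.31 ± 0.04 (log2, SE, limma adjusted p = 0.00025), and without strand the reads of the overlap cannot be given to 1 of these genes.

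Bcl2l11 (ENSMUSG00000027381, chr2:128126038-128162547, plus strand) encodes BIM, which binds every survival protein of the family and is a known target of FOXO3. It stood at 1.58, 1.64 and 1.76 FPKM in Tyr-L libraries 1 to 3 and at 1.09, 0.932 and 0.869 FPKM in Tyr-H libraries 1 to 3. No Tyr-H library reached the lowest Tyr-L library. The mean fell from 1.66 ± 0.0904 to 0.964 ± 0.115 FPKM (SD, n = 3 each), to 58.1%, and the log2 fold change was -0.73 ± 0.14 (SE, 95% interval -1.05 to -0.41, limma adjusted p = 0.0018). Bcl2l11 is a low gene, with an estimated 82 to 170 fragments per library. With a pseudocount of 1 FPKM its log2 fold change was -0.44, and it still passed the test.

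Bmf (ENSMUSG00000040093, chr2:118528757-118549687, minus strand) encodes a BH3-only protein tied to the cytoskeleton. It was the lowest listed member, at 0.849, 0.666 and 0.523 FPKM in Tyr-L libraries 1 to 3 and 0.829, 0.665 and 0.725 FPKM in Tyr-H libraries 1 to 3. The Tyr-L libraries alone spanned the whole Tyr-H range. The log2 fold change of Bmf was 0.12 ± 0.21 (SE, 95% interval -0.34 to 0.59, limma adjusted p = 0.63), and with an estimated 47 to 80 fragments per library a change of that size was not detectable. Its sign turned without Tyr-L library 3, to -0.03 (adjusted p = 0.93). Pmaip1 (ENSMUSG00000024521), which encodes the MCL1-binding protein NOXA, was listed in none of the 6 libraries, was taken as 0 FPKM and has no fold or test.

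**Figure D2:**
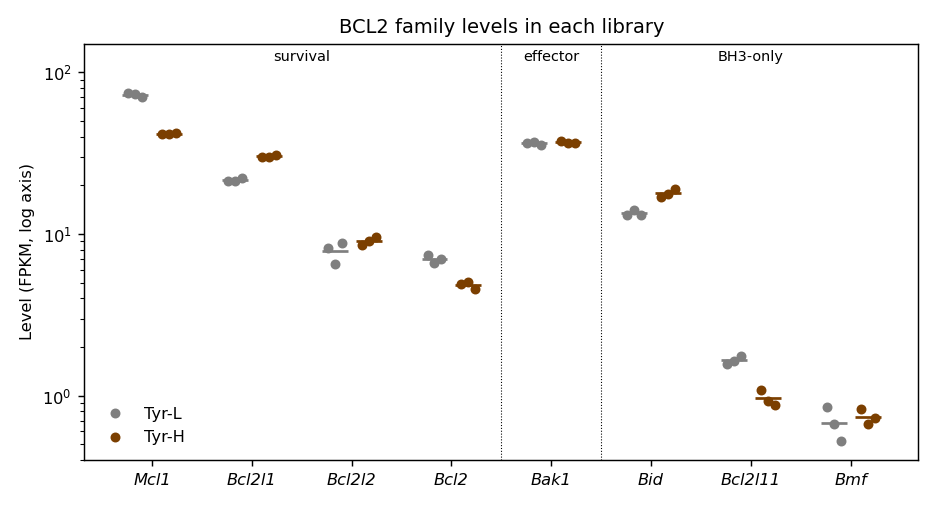
Each point is 1 library and each bar the mean of 3 libraries, for the 8 listed members by role, in FPKM on a log axis (Tyr-L grey, Tyr-H brown). The Tyr-H points of Mcl1, Bcl2 and Bcl2l11 lie below all Tyr-L points, those of Bcl2l1 and Bid lie above them, and those of Bcl2l2, Bak1 and Bmf overlap them.

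The 8 members kept 1 order of levels in both groups: Mcl1, Bak1, Bcl2l1, Bid, Bcl2l2, Bcl2, Bcl2l11 and Bmf, from high to low. Neighbours in this order did not overlap in their libraries except Bcl2l2 and Bcl2 in Tyr-L cells, at 6.5 to 8.74 and 6.65 to 7.38 FPKM. The distance between the top members differed, however. Mcl1 was 3.5, 3.46 and 3.15 times Bcl2l1 in Tyr-L libraries 1 to 3 and 1.38, 1.38 and 1.36 times in Tyr-H libraries 1 to 3, means of 3.37 ± 0.194 and 1.37 ± 0.0113 (SD, n = 3 each). Such ratios within a library do not change when a library is multiplied by a constant. They were computed on values whose members differed, so no test is given for them. Mcl1 was 1.99 ± 0.0414 times Bak1 in Tyr-L cells and 1.13 ± 0.0286 times in Tyr-H cells. Bcl2l1 moved toward Bak1, from 0.591 ± 0.0311 to 0.821 ± 0.027 times its level.

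Summed over the 4 listed survival genes, the level was 111, 107 and 108 FPKM in Tyr-L libraries 1 to 3 and 84.6, 85.5 and 87.3 FPKM in Tyr-H libraries 1 to 3. Mcl1 made up 66.6 ± 1.65% of this sum in Tyr-L cells and 48.4 ± 0.311% in Tyr-H cells (mean ± SD of 3). The share of Bcl2l1 was 19.8 ± 0.753% and 35.3 ± 0.184%, that of Bcl2l2 was 7.15 ± 1.03% and 10.6 ± 0.497%, and that of Bcl2 was 6.43 ± 0.221% and 5.67 ± 0.352%. The summed FPKM of the survival members was thus lower in Tyr-H cells on the deposited scale, and more evenly split between Mcl1 and Bcl2l1. FPKM are relative to the library, so the sum does not give transcripts per cell. The listed BH3-only members Bid, Bcl2l11 and Bmf summed to 15.7 ± 0.504 and 19.6 ± 1.02 FPKM in Tyr-L and Tyr-H cells. Bid was the bulk of this sum, at 85.1 ± 0.724% and 91.3 ± 1.33%, and Bcl2l11 went from 10.5 ± 0.796% to 4.95 ± 0.817%. These shares leave out BH3-only genes that were not chosen as members, such as Bad at 13.1 and 14.0 FPKM. The survival sum over the sum of BH3-only genes and Bak1 was 2.09 ± 0.0723 in Tyr-L cells and 1.52 ± 0.0189 in Tyr-H cells, over the members chosen here and not over the whole family.

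**Figure D3:**
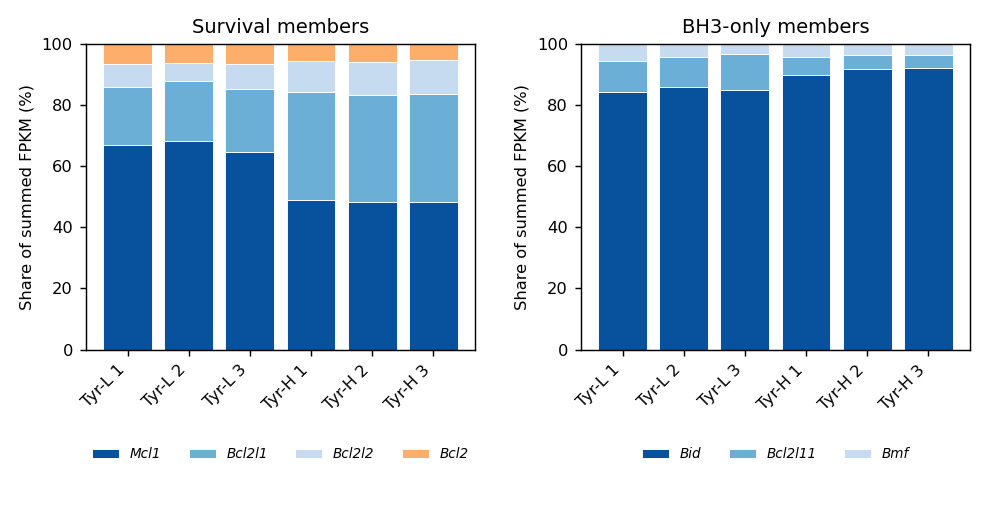
Stacked bars give, for each library, the share in percent of each gene in the summed FPKM of the survival members (left) and of the BH3-only members (right). Mcl1 takes 64.8 to 68.1% in the Tyr-L bars and 48.2 to 48.8% in the Tyr-H bars, and Bcl2l11 takes 10.0 to 11.5% and 4.19 to 5.81%.

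Pairs of partners did not all shift. Mcl1 and its ligand gene Bcl2l11 were both lower in Tyr-H cells, and their ratio was 47.2, 44.7 and 39.8 in Tyr-L libraries 1 to 3 and 37.8, 44.3 and 48.4 in Tyr-H libraries 1 to 3, which overlap. Bcl2l1 and Bid were both higher, and their ratio, 1.61 ± 0.0972 in Tyr-L cells against 1.70 ± 0.0782 in Tyr-H cells, overlapped as well. Across these pairs the ratio moved, with Bcl2l1 at 13.0 ± 0.415 times Bcl2l11 in Tyr-L cells and 31.8 ± 4.14 times in Tyr-H cells. Mcl1 over Bid went from 5.42 ± 0.225 to 2.33 ± 0.126. Bcl2 over Bcl2l11 was 4.24 ± 0.375 and 5.08 ± 0.503, with overlapping libraries.

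The scale of the libraries matters to the members near 0. Over all tested genes the median log2 fold change was -0.15 as deposited, -0.25 with equal totals and -0.01 with median ratio scaling or quantile normalization. Mcl1 kept its direction and passed the test under each of these, at -0.90 to -0.65, as did Bcl2 at -0.62 to -0.34, Bcl2l11 at -0.85 to -0.55, Bcl2l1 at 0.40 to 0.64 and Bid at 0.32 to 0.56. Bcl2l2 did not pass with equal totals (0.13, adjusted p = 0.28). It passed the test with median ratio scaling (0.38, adjusted p = 0.012) and with quantile normalization (0.39, adjusted p = 0.011), and Bak1 passed with the same scalings. With either of these, 4 members passed as higher.

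**Figure D4:**
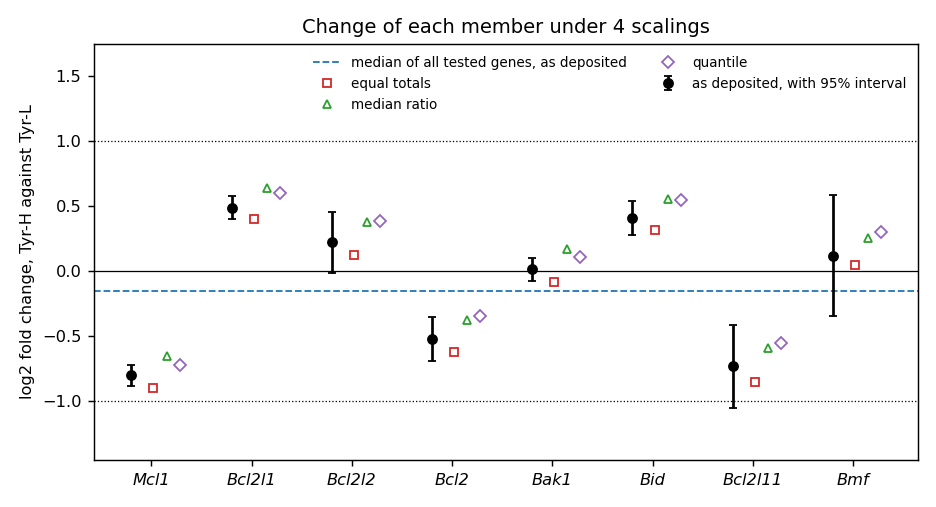
For each member the black point is the log2 fold change (Tyr-H against Tyr-L) on the deposited scale with its 95% interval, and the open marks give it under 3 other scalings; the dashed line is the median of all tested genes, -0.15, and the dotted lines mark 2-fold. Mcl1, Bcl2 and Bcl2l11 stay below 0 and Bcl2l1 and Bid above 0 under all 4, while Bak1 crosses 0.

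By the rule for likeness, which takes the members with the largest changes in size when none is called, the 3 genes whose pattern over the 6 libraries was nearest to each of Mcl1 and Bcl2l11 were sought among 11019 genes averaging at least 1 FPKM, by the Euclidean distance of log2 values centred on each gene's mean. Snapc3 (distance 0.0542), Psma5 (0.0605) and Zfp142 (0.0655) were nearest to Mcl1, where the median distance was 0.857. Elk4 (0.0545), Bcor (0.105) and Cdan1 (0.107) were nearest to Bcl2l11, where the median was 0.814. Psma5, a proteasome subunit gene, had 119, 120 and 114 FPKM in Tyr-L libraries 1 to 3 and 67.0, 66.5 and 70.7 FPKM in Tyr-H libraries 1 to 3. All 6 of these genes were lower in Tyr-H cells, with log2 fold changes of -0.82 to -0.74. The measure matches group difference and library spread alike, and is a description.

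Of 14 other family genes, 6 were tested, of which 3 were higher, 1 was lower and 2 did not pass, with a median log2 fold change of 0.20. None was called. Of all tested genes, 57.8% passed (17.9% higher and 39.9% lower) and 8.75% were called. Bnip3, a mitochondrial receptor for mitophagy that is known as a hypoxia gene, was at 31.2, 18.8 and 21.9 FPKM in Tyr-L libraries 1 to 3 against 34.5, 44.0 and 45.7 FPKM in Tyr-H libraries 1 to 3, a log2 fold change of 0.81 ± 0.17 (SE, limma adjusted p = 0.0028). Its relative Bnip3l went from 23.2 ± 1.74 to 29.0 ± 1.12 FPKM (log2 0.33, adjusted p = 0.001). Bcl2l12 fell from 6.71 ± 0.882 to 4.0 ± 0.415 FPKM (log2 -0.73, adjusted p = 0.00041). Bad, whose protein binds BCL2 and BCL-XL, stood at 13.1 ± 0.297 and 14.0 ± 1.81 FPKM (adjusted p = 0.43), and Bok at 0.403 and 0.41 FPKM did not pass either. Bik, Hrk, Bcl2l14 and Bcl2l15 were listed but too low to test.

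Downstream of the mitochondrion, the list of 15 apoptosome, caspase and inhibitor genes had 3 higher, 9 lower and 3 that did not pass, none called, with a median of -0.27. Apaf1, the scaffold that cytochrome c assembles into the apoptosome, fell from 16.7 ± 0.271 to 11.6 ± 0.035 FPKM (log2 -0.52, SE 0.04, limma adjusted p = 1.1e-05). Casp9, the caspase it activates, fell from 6.61 ± 0.542 to 4.73 ± 0.189 FPKM (log2 -0.47, adjusted p = 0.00082). The lower genes also held Casp2, Casp6 and Aifm1, the last at -0.55 (adjusted p = 8.7e-06). Endog, a mitochondrial nuclease gene, rose from 6.19 ± 0.324 to 9.18 ± 0.965 FPKM (log2 0.56, adjusted p = 0.00039). Among all tested genes 39.9% were lower at this threshold. Under every one of the 3 other scalings, 1 of the higher and 7 of the lower genes of this list still passed.

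Of 20 transcription factor genes known to act on members, 19 were tested, of which 7 were higher, 7 were lower and 5 did not pass, with a median of 0.06, where 17.9% of all tested genes were higher and 39.9% lower. Of these, 6 higher and 5 lower genes passed under all 3 other scalings as well. The genes called were Ddit3, Relb and Atf4, higher in Tyr-H cells, and Mitf, lower, where 8.75% of all tested genes were called. Mitf, the melanocyte regulator under which Bcl2 is known to be transcribed, was at 98.2, 86.7 and 86.6 FPKM in Tyr-L libraries 1 to 3 against 26.8, 24.7 and 23.7 FPKM in Tyr-H libraries 1 to 3, a log2 fold change of -1.85 ± 0.06 (SE, limma adjusted p = 1e-07). The study, which measured MITF among melanogenesis proteins, reported that it did not differ between the subclones, so the RNA and protein results are unlike. Ddit3, which encodes the stress factor CHOP, known to lower Bcl2 and to raise Bcl2l11, was at 22.7 ± 2.82 and 107 ± 21.8 FPKM (log2 2.22, adjusted p = 2.1e-06). Atf4, which acts before it in the stress response, was at 132 ± 10.5 and 312 ± 23.4 FPKM (log2 1.24, adjusted p = 9.6e-07). Relb, a subunit gene of NF-kappaB, a factor known to raise Bcl2l1, was at 4.19 ± 0.249 and 15.0 ± 0.937 FPKM (log2 1.82, adjusted p = 2.4e-07). Foxo3 fell from 11.4 ± 0.377 to 8.82 ± 0.221 FPKM (log2 -0.37, adjusted p = 0.00032). Their part in the levels of the members was not tested.

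**Figure D5:**
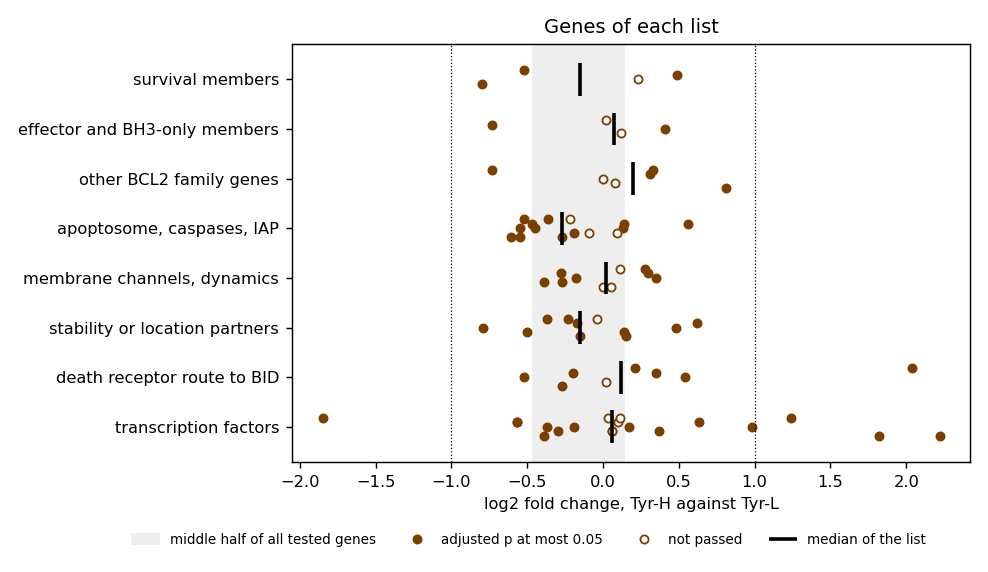
Each point is 1 tested gene of the named list, placed by its log2 fold change (Tyr-H against Tyr-L), filled where the adjusted p is at most 0.05, with a black bar at the median of the list and a grey band from -0.46 to 0.14, the quartiles of all tested genes. The members lie within the 2-fold limits, and the points past 2-fold are 4 transcription factor genes and Fas, whose Tyr-L mean of 0.0986 FPKM is under the filter of 0.1 FPKM and whose list median is drawn with it (0.12, and 0.02 without it).

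All 7 melanocyte markers were listed in every library and summed to 7340 to 7660 FPKM in Tyr-L libraries against 5440 to 5960 FPKM in Tyr-H libraries, with Tyr itself higher in Tyr-H cells, at 10.0 and 21.3 FPKM. Tyrp1 (log2 -0.23) and Dct (log2 -0.64), the gene of TYRP2, were lower in Tyr-H cells as RNA. The study's protein measurements gave more tyrosinase, TYRP1 and TYRP2 in Tyr-H cells. Of 10 leukocyte markers 6 were unlisted, Ptprc among them, and the rest summed to 0.66 to 0.996 and 0.787 to 1.24 FPKM. Fibroblast markers summed to at most 1.18 FPKM, and the endothelial and keratinocyte markers to at most 0.054 and 0.249 FPKM. The tables listed 17211 to 17413 genes in Tyr-L and 16813 to 16949 in Tyr-H libraries. Depth, estimated from low FPKM values and transcript lengths, was 18800000 to 20700000 and 18800000 to 21600000 fragments. Libraries of the same group differed by a median of 0.0953 to 0.114 on the log2 scale per gene, and those of different groups by 0.315 to 0.371.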

How the data were processed

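RNA of 3 Tyr-L and 3 Tyr-H libraries was sequenced on an Illumina instrument from both ends with reads of 150 bp, after TRIzol extraction and preparation of mRNA libraries. The authors deposited a table of FPKM per library, already normalized for transcript length and mapped fragments; the submitters' processing notes name Trimmomatic, HISAT2 (or HISAT) and GRCm38.p6, and the quantifier, annotation release and strand setting are not given in the sources used here. FPKM are not counts, so no count test was run. The depth estimate, the peak of FPKM times length over low genes with a single transcript of at least 1500 nt, is approximate and covers counting error only.

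The members and gene lists were chosen with earlier results of these data known. Groups and replicate numbers came from the labels. Unlisted genes were set to 0 FPKM. On log2(FPKM + 0.1), limma 3.58.1 in R 4.3.3 (lmFit, trended eBayes, Benjamini-Hochberg) compared the groups over 14336 genes; the procedure was tested on simulated data. The thresholds (adjusted p of at most 0.05, 2-fold) follow the study's methods. The exact permutation test was two-sided on FPKM, 3 against 3. The naming rule took the members, list genes that were called or that a sentence on a member needs, overlapping genes, and the 3 genes most like each of the members with the largest changes in size. The text names other list genes and genes of a shared locus too, all of them chosen after their values were seen. Coordinates are those of GENCODE M21 (GRCm38), which held 20709 of the 20788 identifiers; promoter windows are from RefSeq. The listing could not be checked against reads, and protein sequences and some family genes were not used here. Alternatives were pseudocounts of 0.01 and 1, no filter or a mean of at least 1 FPKM, equal totals of 1000000, median ratio scaling, quantile normalization, no variance trend, a replicate block, omission of each library, and no fold threshold. Tables and plots were made in Python 3.11.15 (matplotlib 3.10.9, scipy 1.17.1, pandas 2.3.3, numpy 2.4.6).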

Additional observations from a re-analysis of the deposited data

How the results depend on the processing

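Mcl1, Bcl2l1, Bcl2, Bcl2l11 and Bid kept their direction and passed the test under all 15 alternatives. Leaving out single libraries gave log2 fold changes of -0.83 to -0.78 for Mcl1, 0.47 to 0.51 for Bcl2l1, -0.56 to -0.48 for Bcl2, -0.81 to -0.66 for Bcl2l11 and 0.36 to 0.45 for Bid. It was 0.10 to 0.31 for Bcl2l2, 0.00 to 0.03 for Bak1 and -0.03 to 0.28 for Bmf. Without Tyr-L replicate 3, Bcl2l2 passed the test at 0.31 (adjusted p = 0.037), Bak1 moved to 0.00 (adjusted p = 0.97) with its sign turned before rounding, and Bmf to -0.03 (adjusted p = 0.93).

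Scaling moved Bcl2l2 to 0.13 (adjusted p = 0.28) with equal totals, 0.38 (adjusted p = 0.012) with median ratio scaling and 0.39 (adjusted p = 0.011) with quantile normalization. It moved Bak1 to -0.08 (adjusted p = 0.17) with equal totals, 0.17 (adjusted p = 0.0045) with median ratio scaling and 0.11 (adjusted p = 0.03) with quantile normalization. Under both of the last scalings 4 members passed as higher at the adjusted p, against 2 as deposited. The calls over all tested genes were 425 higher and 829 lower. These counts were 185 and 203 with a pseudocount of 1, and 247 and 393 with a mean of at least 1 FPKM, a filter that leaves fewer genes tested and gives Bmf no value. Quantile normalization gave 494 lower. Of the called genes 33.9% were higher as deposited, 25.5% with equal totals, 47.8% with median ratio scaling, 55.3% with quantile normalization and 47.7% with a pseudocount of 1. The cause of these moves was not tested. With no fold threshold 2570 genes were higher and 5722 lower, among them 2 and 3 members; in the pathway lists 24 genes were then higher and 30 lower, against 4 and 1 with the threshold. Fas, tested only through the group where it is high, is among these; without it the counts were 23 and 30, against 3 and 1. Of the 53 list genes other than Fas, 17 did not pass the test under every scaling, which leaves 17 higher and 19 lower, and 1 of the 17 (Dynll1) also did not keep its direction.

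The labels do not say whether the replicate numbers pair the samples. Same-numbered libraries had correlations of 0.00904, 0.0342 and -0.173 in their deviations from the group means over 11026 genes. Differently numbered libraries had -0.148 to 0.129. Such values show no shared deviation by number, but cannot tell whether libraries were handled together. With the replicate number as a block the calls were 430 higher and 828 lower, and no member's call changed (Bcl2l2 0.23, Bak1 0.02).

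Depth limits Bmf and Bcl2l11 most, the members with the fewest estimated fragments, and nothing here separates unlisted from silent for Pmaip1 and Bcl2a1b.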

Other observations

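Further gene groups around the BCL2 family were measured in the same libraries. Of 10 genes for outer membrane channels and mitochondrial dynamics, 3 were higher in Tyr-H cells, 4 were lower and 3 did not pass, with a median log2 fold change of 0.02 and none called. Over all tested genes 57.8% passed, 17.9% higher and 39.9% lower. All 3 higher and 2 of the lower genes passed under every other scaling too. The higher genes were the voltage-dependent anion channels, whose products carry metabolites across the outer membrane and of which VDAC2 is known to bind BAK. Vdac1 was at 238 ± 2.76 FPKM in Tyr-L cells against 289 ± 5.14 FPKM in Tyr-H cells (mean ± SD of 3 libraries, log2 0.28, limma adjusted p = 4.9e-05). Vdac2 was at 170 ± 5.51 and 209 ± 3.52 FPKM (log2 0.30, adjusted p = 6.3e-05), and Vdac3 at 112 ± 5.5 and 143 ± 5.74 FPKM (log2 0.35, adjusted p = 0.00014). All Tyr-H libraries were above all Tyr-L libraries for each. Mtch2, which encodes a membrane receptor for BID, fell from 86.1 ± 1.6 to 71.2 ± 3.4 FPKM (log2 -0.27, adjusted p = 0.00032). The mitochondrial fusion gene Mfn1 fell from 22.2 ± 0.787 to 16.9 ± 1.16 FPKM (log2 -0.39, adjusted p = 0.00032). These directions held under each of the 3 other scalings.

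Among 12 genes whose products set the stability or location of BCL2 proteins, 11 were tested, of which 4 were higher, 6 were lower and 1 did not pass, with a median of -0.15, the same as over all tested genes, of which 17.9% were higher and 39.9% lower. Under every other scaling 2 higher and 3 lower genes still passed. The ubiquitin ligase genes known to act on MCL1 went in different directions. March5 was higher, at 43.8 ± 0.637 and 48.5 ± 2.32 FPKM (log2 0.15, adjusted p = 0.014), but did not pass the test under every other scaling (adjusted p up to 0.29). Lower were Fbxw7 from 7.77 ± 0.166 to 4.44 ± 0.209 FPKM (log2 -0.79, adjusted p = 1.3e-05), Huwe1 from 29.7 ± 0.975 to 23.0 ± 0.381 FPKM (log2 -0.37, adjusted p = 5.3e-05) and Btrc from 3.89 ± 0.131 to 2.72 ± 0.0686 FPKM (log2 -0.50, adjusted p = 0.00083). The kinase genes Pim1 (log2 0.62, adjusted p = 0.0054) and Pim2 (log2 0.48, adjusted p = 0.0023) were higher. RNA levels do not give the amount of MCL1 protein, which was not measured here. Of 8 genes on the death receptor route to BID, 7 were measured above the filter in both groups, of which 3 were higher, 3 were lower and 1 did not pass, with a median of 0.02, against 17.9% higher and 39.9% lower over all tested genes. Under every other scaling 2 higher and 1 lower still passed. Fas, the remaining gene, encodes a death receptor and entered the test only through Tyr-H cells, since its Tyr-L mean of 0.0986 FPKM is under the filter, so its values are a description. It was at 0.137 and 0.158 FPKM in Tyr-L libraries 1 and 2, unlisted in Tyr-L library 3, and at 0.758, 0.402 and 0.895 FPKM in Tyr-H libraries 1 to 3. Tnfrsf1a, the main receptor for TNF, rose from 46.6 ± 2.82 to 67.6 ± 2.27 FPKM (log2 0.54, adjusted p = 1.7e-05). Casp8, whose product cleaves BID, fell from 30.0 ± 1.07 to 20.9 ± 0.453 FPKM (log2 -0.52, adjusted p = 9.1e-06), while Bid itself was higher.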
